A study of Mus musculus with 6 samples.

Results

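The genes described here are those of the immediate-early and AP-1 transcription response, chosen by name as 33 symbols, of which 31 were present among the 12389 genes of the deposited table. The other 2, Fosb and Egr2, were not analysed here. The RNA came from vascular smooth muscle cells, which contract the artery wall, grown as primary explants of mouse thoracic aorta. The KO cultures came from mice with a smooth muscle-specific deletion of LRRC8A, without which volume-regulated anion channels do not form, and the WT cultures came from wild-type mice. Each group had 3 libraries, called independent biological replicates with no word on whether they were separate animals, and all 6 cultures were untreated, kept in serum-containing medium and collected at passage 6 or below. No source used here names the promoter that drove the deletion or the strain, age or sex of the mice. The groups rest on the sample titles, because under genotype all 6 samples carry the entry wild type.

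Immediate-early genes are switched on within minutes of a stimulus such as serum, stretch or stress, without the need for new protein. Growth factor signals reach them through the ERK branch of the MAP kinase cascade, which acts on the serum response factor SRF and its ETS partners at CArG boxes, and through CREB and ATF proteins at cAMP response elements. FOS and JUN proteins pair through leucine zippers to form AP-1, which binds DNA as a dimer, while EGR and KLF proteins bind through zinc fingers, and DUSP phosphatases, ZFP36 proteins and ERRFI1 shut the response down. In smooth muscle these genes are known to respond to injury and to mitogens such as PDGF, and KLF4 is known to repress contractile genes.

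Of the 31 genes, the promoters of the 3 that were lower in every KO library than in any WT library, Atf3, Junb and Ier3, are shown first, with that of Dusp5, which holds the motif that SRF binds. Each run is the 250 bases before the RefSeq start on GRCm38.p6, written 5′ to 3′ in lower case, with matches to 6 searched motifs in capitals.
Atf3 (chr1:191183334-191183583, minus strand): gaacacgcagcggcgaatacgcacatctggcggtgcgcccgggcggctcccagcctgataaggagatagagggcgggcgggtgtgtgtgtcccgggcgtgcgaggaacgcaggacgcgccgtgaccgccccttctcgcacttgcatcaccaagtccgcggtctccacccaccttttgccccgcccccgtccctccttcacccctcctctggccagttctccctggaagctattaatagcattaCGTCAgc
Junb (chr8:84978749-84978998, minus strand): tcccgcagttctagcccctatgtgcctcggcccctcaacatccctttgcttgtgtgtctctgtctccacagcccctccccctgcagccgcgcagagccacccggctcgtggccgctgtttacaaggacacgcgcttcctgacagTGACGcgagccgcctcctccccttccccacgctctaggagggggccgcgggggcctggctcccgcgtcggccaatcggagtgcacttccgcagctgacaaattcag
Ier3 (chr17:35821463-35821712, plus strand): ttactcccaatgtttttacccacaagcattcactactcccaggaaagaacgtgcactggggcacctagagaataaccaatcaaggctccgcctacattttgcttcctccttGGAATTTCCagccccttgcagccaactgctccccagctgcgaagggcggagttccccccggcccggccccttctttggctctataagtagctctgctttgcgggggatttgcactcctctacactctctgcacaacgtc
Dusp5 (chr19:53528895-53529144, plus strand): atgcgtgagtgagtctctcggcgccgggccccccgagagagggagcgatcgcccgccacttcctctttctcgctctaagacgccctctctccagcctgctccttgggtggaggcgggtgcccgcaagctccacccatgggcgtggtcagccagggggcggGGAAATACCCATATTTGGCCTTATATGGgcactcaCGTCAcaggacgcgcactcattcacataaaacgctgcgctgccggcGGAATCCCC
In Atf3 the capitals mark the core of a cAMP response element, TGACG, read on the other strand 7 to 3 bases before the start. In Junb they mark the same core 106 to 102 bases before the start. In Ier3 they mark a kappa B match, GGNNNTTCC, 139 to 131 bases before the start. In Dusp5 they mark adjoining CArG boxes at 82 to 73 and 72 to 63 bases before the start, a kappa B match that overlaps the first of them by 1 base, a core of the cAMP response element and a further kappa B match. The RefSeq start of Atf3 used here lies 34706 bases inside the longest gene model of the files.

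Promoter windows were found for 22 of the 31 genes, and the others were Fosl1, Egr1, Egr3, Myc, Klf5, Klf10, Dusp4, Ier2 and Sik1. Both strands were searched. Besides Atf3, the RefSeq start lay inside the gene model by 53656 bases for Dusp1, 3732 for Per1 and 1025 for Zfp36. For Jund it lay 1210 bases before the gene model, and for the other windows it was at most 671 bases away. The element core TGACG was in 11 of the 22 windows (50%), beside 17.8% of all 32851 windows of the same length. The EGR motif GCGNGGGCG was in 6 of 22, those of Fosl2, Klf2, Klf4, Btg2, Zfp36 and Mafk, beside 4.7% of all windows. Both motifs contain CG, and the windows were not matched for base composition. The part of base composition in these shares was not tested. The CArG box was in 2, Dusp5 and Zfp36 (1.47% of all windows), the AP-1 motif TGANTCA in 2, Klf9 and Zfp36l1 (6.75%), the full element TGACGTCA in 2, Dusp1 and Btg2 (1.55%), and the kappa B motif in 3, Dusp5, Dusp6 and Ier3 (15.7%). The full element contains the core, so those matches are counted in both. Sites outside the 250 bases, or in looser forms of the motifs, were not searched. A missing match therefore does not mean that a gene lacks the site.

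Values are scaled reads, that is, estimated read counts that the authors divided by a factor for each library, and log2 fold changes are KO minus WT on the log2(value + 2) scale from limma, which understates changes of low genes. The estimated depth, in M reads, was 35.9, 31.6 and 47.9 in KO replicates 1 to 3 and 33.1, 31.035 and 45.4 in WT replicates 1 to 3. Lrrc8a had 868, 672 and 506 scaled reads in KO replicates 1 to 3, against 2578, 2194 and 1221 in WT replicates 1 to 3, so that every KO library lay below every WT library, the direction the titles call for. Of 8 smooth muscle markers 6 were present and Des and Mylk were not, and the most abundant were Acta2 and Tagln. Others were low or uneven. Myh11 had 41.7, 20.8 and 96.8 scaled reads in KO replicates 1 to 3, against 90.1, 152 and 1656 in WT replicates 1 to 3. Cnn1 had 137, 148 and 2968 in KO and 124, 952 and 8583 in WT. Smtn, by contrast, lay between 2191 and 3049 in all 6 libraries. Fibroblast markers were all present, with sums of 57293 to 86349 in KO libraries and 60956 to 70625 in WT libraries, led by Gsn and Dcn. These sums hide swings of single markers in both directions. In KO replicates 1 to 3 Dcn had 24711, 26351 and 1362 scaled reads, while Pdgfra had 2885, 2930 and 15182. Of 8 endothelial markers 7, among them Pecam1 and Cdh5, were absent. Transcripts of the mitochondrial genome made up 2.37% to 6.41% of the values in KO libraries and 1.82% to 7.13% in WT libraries, lowest in replicate 3 of each group. KO replicate 2 had Xist at 21672 scaled reads and Y-linked genes at 2.31 or below, while the other 5 libraries had Xist at 7.11 or below and Ddx3y, a Y-linked gene, at 1339 or above. By these genes KO replicate 2 was female and the other 5 libraries male, so sex differed within KO and within same-numbered pair 2. The part of sex in the values was not tested. In bulk RNA, fewer cells of a type and less RNA per cell cannot be told apart.

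None of the 31 genes passed an adjusted p of 0.05 in limma, and 0 of the 12363 genes tested did (0%). The deleted gene Lrrc8a was not called either, with a log2 fold change of -1.51 (SE 0.34) and a limma adjusted p of 0.999. The lack of a call therefore does not show that a gene was unchanged. All 31 passed the filter on low values. At an unadjusted limma p under 0.05 there were 3, Atf3, Junb and Ier3, all lower in KO, where 3.62% of all genes were at that level, 2.15% lower and 1.46% higher. The same 3 were the members whose KO and WT libraries did not overlap, all with KO below, where 8.43% of all genes did not overlap, 4.51% with KO below and 3.91% with KO above. With 3 libraries against 3, a two-sided exact permutation test gives p = 0.1, the smallest it allows, to any gene whose groups do not overlap, so it adds nothing to that count. Of the 31, 21 had a log2 fold change below 0, beside 49.6% of all genes, and the median was -0.17, beside 0.00 over all genes tested. With 1 library left out, that median ran between -0.37 without WT replicate 3 and 0.02 without WT replicate 1. By same-numbered pair the median was -0.44, -0.36 and 0.06 in replicates 1, 2 and 3, and all 3 pairs were below 0 for 5 members, beside 15% of all genes, and above 0 for 0 members, beside 15.7% of all genes. Same-numbered libraries shared part of their deviations across genes, least for replicate 2, though no label names a pairing and the main fit left it out. With the replicate number as a block, limma again called 0 members and 0 of all genes (0%). There 4 members were lower at an unadjusted limma p under 0.05, where 4.25% of all genes were, and 0 higher, where 3.17% were. Library quality weights, alone or with the block, also gave 0 called members, while 0.243% and 0.0404% of all genes were called.

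Atf3 encodes a bZIP factor induced by many stresses that pairs with JUN proteins and often represses. The gene (ENSMUSG00000026628) spans chr1:191170296-191218039 on the minus strand of GRCm38. It had 66.3, 83.2 and 43.4 scaled reads in KO replicates 1 to 3, against 409, 363 and 181 in WT replicates 1 to 3. The highest KO library lay below the lowest WT library, WT replicate 3. The group values were 64.3 ± 20.0 in KO and 318 ± 120.5 in WT (SD, n = 3 each), and the log2 fold change was -2.23 (SE 0.51), with a limma adjusted p of 0.999. The authors' deposited table lists Atf3 with an FDR of 0.00603 and a log2 ratio of -2.31, and it is the only member with an FDR under 0.05 in the authors' deposited table, where 0.525% of all genes are, 0.412% lower and 0.113% higher. The authors' deposited table gives Junb an FDR of 0.39 and Ier3 one of 0.348. Over every other setting tried the limma log2 fold change stayed between -2.59 and -1.98, and the adjusted p ran from 0.0577 with library quality weights to 1.0.

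**Figure D1:**
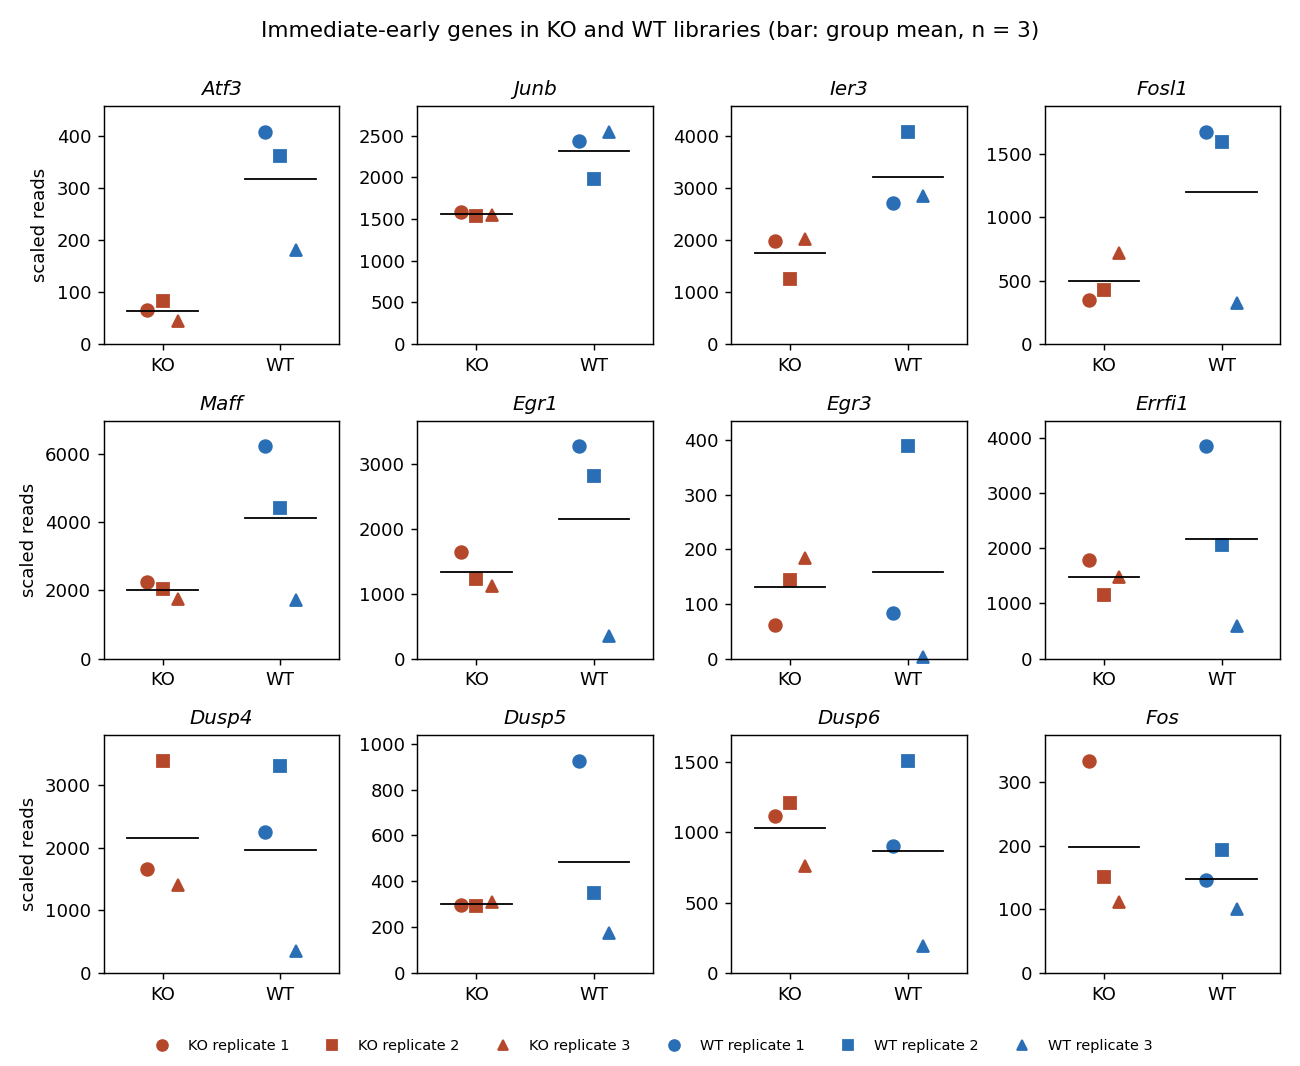
Scaled reads (vertical axis, from 0) of 12 members in each library, KO left of WT, with symbols for the replicate number and bars for group means, n = 3 each. Atf3, Junb and Ier3 have all KO points below all WT points, while WT replicate 3 is the lowest point for Fosl1, Maff, Egr1, Egr3, Errfi1, Dusp4, Dusp5, Dusp6 and Fos.

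Among the AP-1 subunits, Junb, a JUN protein that can restrain JUN activity, stood out for how close its KO libraries were. They had 1585, 1535 and 1549.9 scaled reads in replicates 1 to 3, against 2431, 1984 and 2547 in WT replicates 1 to 3. The groups did not overlap, and the log2 fold change was -0.57 (SE 0.18). Prdx2 lies on the other strand and shares 173 of the 2301 exonic bases of Junb, so that part of the value is uncertain if strand was not used in counting.

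Fosl1 encodes FRA1, a FOS protein driven by sustained ERK signalling. It had 349, 426 and 721 scaled reads in KO replicates 1 to 3, against 1673, 1595 and 326 in WT replicates 1 to 3. WT replicates 1 and 2 lay above every KO library and WT replicate 3 below every one, so the groups overlap, and the log2 fold change was -1.01 (SE 0.67). It was -1.78 without WT replicate 3, -0.60 without WT replicate 1 and -0.64 without WT replicate 2. Ccdc85b shares 1163 of the 2033 exonic bases of Fosl1 on the other strand, with the same uncertainty.

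The groups overlapped for each of the remaining subunits. Fos, the founding immediate-early gene, had 334, 150.2 and 111 scaled reads in KO replicates 1 to 3, against 147, 194 and 100.5 in WT replicates 1 to 3, with KO replicate 1 apart above the rest. Fosl2, which encodes FRA2, had 9099, 6232 and 8491 in KO and 8504, 6954 and 8614 in WT, with a log2 fold change of -0.03 (SE 0.23), and its sign turned under several settings. Jun, the other founding AP-1 gene, had 855, 1216 and 1368 in KO and 919, 1668 and 1143 in WT, with a log2 fold change of -0.10 (SE 0.30). Jund, the JUN gene that is expressed most constantly in resting cells, had 9406, 6182 and 4391 in KO and 7342, 4684 and 5689.8 in WT, with 0.13 (SE 0.32).

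Per kilobase of annotated exon, Jund was the most abundant FOS or JUN transcript in both groups, at 3993 ± 1524 scaled reads per kb in KO and 3540.3 ± 805 in WT (SD, n = 3 each), and it did not overlap with the next gene in either group. A gene on the other strand shares 877 of the 1668 exonic bases of Jund, so its level is uncertain if strand was not used in counting. In KO libraries Fosl2 (820.3 per kb), Junb (677), Jun (359.5), Fosl1 (245) and Fos (84.3) followed, and the libraries of Fosl2 and Junb overlapped, as did those of Jun and Fosl1. In WT libraries Junb (1009 per kb), Fosl2 (829), Fosl1 (589), Jun (389.8) and Fos (62.5) followed, and each neighbour pair from Junb to Jun overlapped. Fos was the lowest in both groups. Across all 31 members Klf4, at 2692 per kb in KO and 2564 in WT, and Ier3, at 1544 in KO and 2844 in WT, were with Jund among the 4 highest in each group, and Klf5 was the lowest, at 27.6 in KO and 33.2 in WT.

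**Figure D2:**
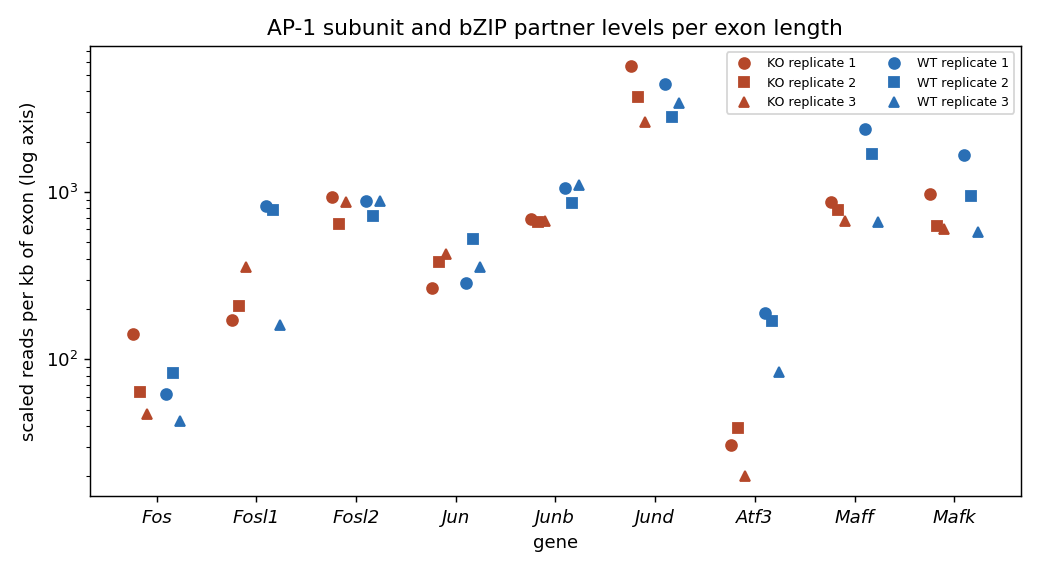
Scaled reads per kb of annotated exon (log axis) for 9 AP-1 subunit and bZIP partner genes in each library, KO left of WT within each gene, with symbols for the replicate number. Jund lies above the other FOS and JUN genes in every library, and Atf3 in KO lies below Atf3 in WT.

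Maff and Mafk encode small MAF proteins, which lack an activation domain and pair with NRF2 or BACH1 as well as with each other. Maff had 2249, 2041 and 1737 scaled reads in KO replicates 1 to 3, against 6214, 4409 and 1707 in WT replicates 1 to 3. WT replicate 3 lay just below the lowest KO library while the other WT libraries lay above the highest, and the log2 fold change was -0.85 (SE 0.46), which was -1.39 without WT replicate 3 and -0.46 without WT replicate 1. Mafk had 3776, 2453 and 2362 in KO and 6455, 3699 and 2265 in WT, so that WT replicate 2 lay within the range of the KO libraries, and its log2 fold change was -0.44 (SE 0.40), which was -0.80 without WT replicate 3 and -0.050 without WT replicate 1. With the replicate block the unadjusted limma p of Maff was 0.0371, with an adjusted p of 0.642.

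The EGR genes, which encode zinc finger factors that bind GC-rich promoters, differed more among WT libraries than between the groups. Egr1 had 1632, 1229.7 and 1112 scaled reads in KO replicates 1 to 3, against 3268, 2804 and 349.7 in WT replicates 1 to 3. All 3 KO libraries lay between WT replicate 3 and the other WT libraries, and the log2 fold change was -0.17 (SE 0.84). Egr3 had 62.0, 144 and 184 in KO and 83.0, 389 and 3.16 in WT, so that WT replicate 3 was 122.8-fold below WT replicate 2. Its log2 fold change of 1.11 (SE 1.53) rests on that library, and without WT replicate 3 it was -0.60. The log2 ratio in the authors' deposited table, -0.28, has the other sign. Myc, the growth-promoting bHLH factor, had 1356, 2023 and 966 in KO and 2648, 1309.6 and 959.6 in WT, with groups that overlapped.

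WT replicate 3 was the lowest library for all 4 MAP kinase phosphatases as well, and their groups overlapped. Dusp6, which acts on ERK in the cytoplasm and is itself an ERK target, had 1119, 1207 and 757 scaled reads in KO replicates 1 to 3, against 904, 1508 and 194 in WT replicates 1 to 3. Dusp4, a nuclear phosphatase, had 1658, 3391 and 1409.7 in KO and 2252, 3310.2 and 349.7 in WT. The log2 fold changes of 0.65 (SE 0.73) for Dusp6 and 0.53 (SE 0.86) for Dusp4 were -0.21 and -0.45 without WT replicate 3.

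Dusp5, a nuclear phosphatase specific for ERK, had 297, 292 and 309 scaled reads in KO replicates 1 to 3, against 926, 347 and 176 in WT replicates 1 to 3. Its KO libraries differed by 1.06-fold and its WT libraries by 5.27-fold. Dusp1, which acts mainly on p38 and JNK, had 2254, 2165 and 2654 in KO and 3064, 4271 and 2031 in WT, with a log2 fold change of -0.35 (SE 0.29). Errfi1, which encodes an inhibitor of the EGF receptor, had 1782, 1148 and 1473 in KO and 3843, 2059 and 593 in WT. In all 3 genes WT replicate 3 was the lowest library and the KO libraries lay between the WT extremes.

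WT replicate 3 was the lowest of the 6 libraries for 15 of the 31 members, where it was the lowest for 20.8% of all genes tested, and WT replicates 1 and 2 were the highest for 10 and 8 members, where they were the highest for 20.8% and 12.1% of all genes. The median member deviated from its mean over the 6 libraries by -0.08, -0.21 and -0.21 on the log2 scale in KO replicates 1 to 3, and by 0.28, 0.28 and -0.38 in WT replicates 1 to 3, where the median over all genes was 0.01 in each library. The highest and lowest KO libraries differed by more than 4-fold for 1 member, Klf5 (9.51% of all genes), and the WT libraries did so for 8 members (9.21% of all genes), Fosl1, Egr1, Egr3, Dusp4, Dusp5, Dusp6, Zfp36l1 and Errfi1. The log2 SD was larger in WT than in KO for 21 of 31 members, beside 52.8% of all genes, with a median of 0.38 in KO and 0.56 in WT for members, and 0.32 in KO and 0.35 in WT for all genes. These are counts in 3 libraries a group, with no test of the difference in spread.

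The smooth muscle markers summed to 31498, 32534 and 106017 scaled reads in KO replicates 1 to 3 and to 16520, 25282 and 205102 in WT replicates 1 to 3, so that WT replicate 3 held the most. The 6 mesothelial and epithelial markers present of 8, Krt8 and Epcam being absent, summed to 9944, 8002.5 and 1121 in KO replicates 1 to 3 and 18342, 9989 and 6200 in WT replicates 1 to 3. The leukocyte markers summed to 834 to 1676 in KO and 1995 to 2616 in WT, with 4 of 8, Ptprc, Adgre1, Tyrobp and Fcer1g, absent. Of the neural markers 2 of 6 were present, Ncam1 and S100b, which summed to 1871 to 5136 in KO and 1119 to 1677 in WT, and of the skeletal and cardiac markers 2 of 6, Tnnt2 and Actn3, at 208 to 484 in KO and 81.7 to 434 in WT. The part of these markers in the values of the immediate-early genes was not tested.

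Without WT replicate 3, 9 members had all KO libraries below the remaining WT libraries and 0 above, where 23.3% of all genes did not overlap, 11.3% with KO below and 12% with KO above. They were Fosl1, Junb, Egr1, Atf3, Dusp1, Dusp5, Ier3, Maff and Errfi1, and the median log2 fold change of the 31 was then -0.37. Leaving out a WT library makes lack of overlap easier for every gene. WT replicate 3 was the lowest library for 15 of the 31 members, beside 20.8% of all genes. Leaving it out therefore favours KO below among the members, and their count carries no further weight. In this setting limma still called 0 of the 31. Without replicate 3 of both groups, a setting added once the values were known, 10 of the 31 members were below and 1 above. Of all genes, 37.3% did not overlap, 18.8% with KO below and 18.5% with KO above. The members' share was higher than that of all genes with KO below and lower with KO above. With both directions pooled, 11 members did not overlap, a share no higher than that of all genes. Leaving out any other single library gave 4 or 5 members without overlap, where 14.3% to 19.5% of all genes had none.

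**Figure D3:**
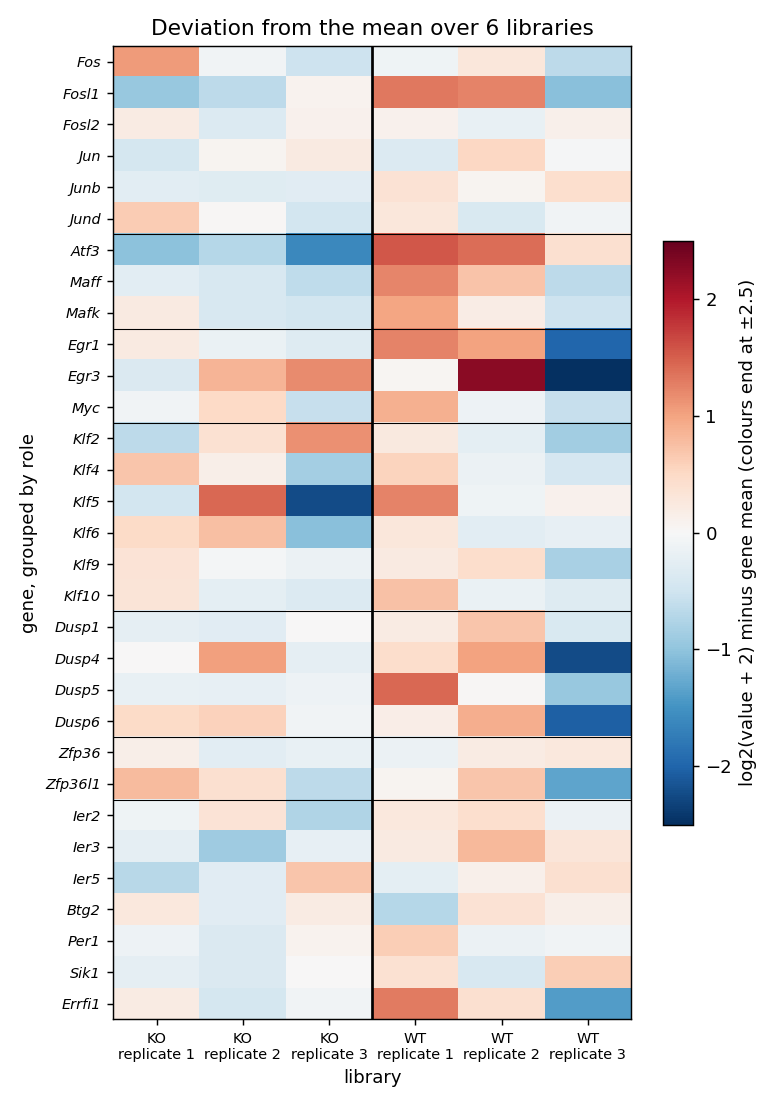
Deviation of each of the 31 members from its own mean over the 6 libraries, on the log2(value + 2) scale, with KO libraries left of WT libraries and genes grouped by role. WT replicate 3 is blue for Egr1, Egr3, Dusp4, Dusp6, Errfi1 and Zfp36l1, while Atf3 is blue in all KO libraries and red in all WT libraries.

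KLF genes, which encode zinc finger factors with roles in vascular identity, gave no common direction, with 3 of 6 below 0 and a median of 0.05. Klf4 had 12164, 8317 and 4140.3 scaled reads in KO replicates 1 to 3, against 11026, 6799 and 5627 in WT replicates 1 to 3, with a log2 fold change of -0.0034 (SE 0.44) whose sign turned under other scalings. In both groups replicate 1 was high and replicate 3 low. Klf2, a flow-responsive factor of endothelium, had 198, 407 and 693 in KO and 373, 266 and 172 in WT, and the groups overlapped. Klf5 ran over 13.7-fold within KO, from 23.5 in replicate 3 to 322 in replicate 2, and over 2.57-fold in WT. Its WT libraries, at 282, 109.7 and 127, lay within the range of the KO libraries. Klf6 had 9435, 11371 and 3282 in KO and 8184, 5621 and 5881 in WT, with a log2 fold change of 0.13 (SE 0.47). Klf9, a glucocorticoid-responsive gene, had 4477, 3403 and 3156 in KO and 4117, 4782 and 1999 in WT, with 0.10 (SE 0.35). Klf10, a TGF-beta-inducible gene, had 1107, 741 and 698 in KO and 1471, 784 and 704 in WT, with -0.17 (SE 0.34), and every same-numbered pair lay below 0 although the groups overlapped.

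Ier3 encodes a small protein that supports survival under stress and modulates ERK and NF-kB signalling. It had 1977, 1247 and 2014 scaled reads in KO replicates 1 to 3, against 2709, 4085 and 2857 in WT replicates 1 to 3. The KO libraries lay below all WT libraries, and the log2 fold change was -0.89 (SE 0.27). Ier2, a nuclear protein, had 403, 551 and 258 in KO and 526, 584 and 392 in WT, with -0.35 (SE 0.34) and all 3 same-numbered pairs below 0. Ier5, a regulator of heat shock factor, had 691, 917 and 1823 in KO and 949.5, 1229.1 and 1475 in WT, with -0.19 (SE 0.38). The groups overlapped for both. Of the 7 genes in the group of IER proteins and growth or signalling regulators, 6 were below 0, with a median of -0.26. Sik1, a salt-inducible kinase, had 859, 788 and 1015.5 in KO and 1316, 762 and 1539 in WT, with -0.39 (SE 0.30). The clock gene Per1 had 711, 604 and 819 in KO and 1188, 700.3 and 733 in WT, with -0.26 (SE 0.27). Btg2, an antiproliferative factor, had 2019, 1374 and 1935 in KO and 1027, 2143 and 1856 in WT, with 0.13 (SE 0.32). For these 3 genes, too, the groups overlapped.

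Zfp36, which encodes tristetraprolin, a protein that targets AU-rich mRNAs for decay, had 518, 388 and 409 scaled reads in KO replicates 1 to 3, against 423, 544 and 560.1 in WT replicates 1 to 3, with a log2 fold change of -0.22 (SE 0.24). Its relative Zfp36l1 had 3604, 2738 and 1326 in KO and 2186, 3373 and 826 in WT, with 0.37 (SE 0.59). Replicate 3 was the lowest library in each group for Zfp36l1, and both genes overlapped between groups.

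**Figure D4:**
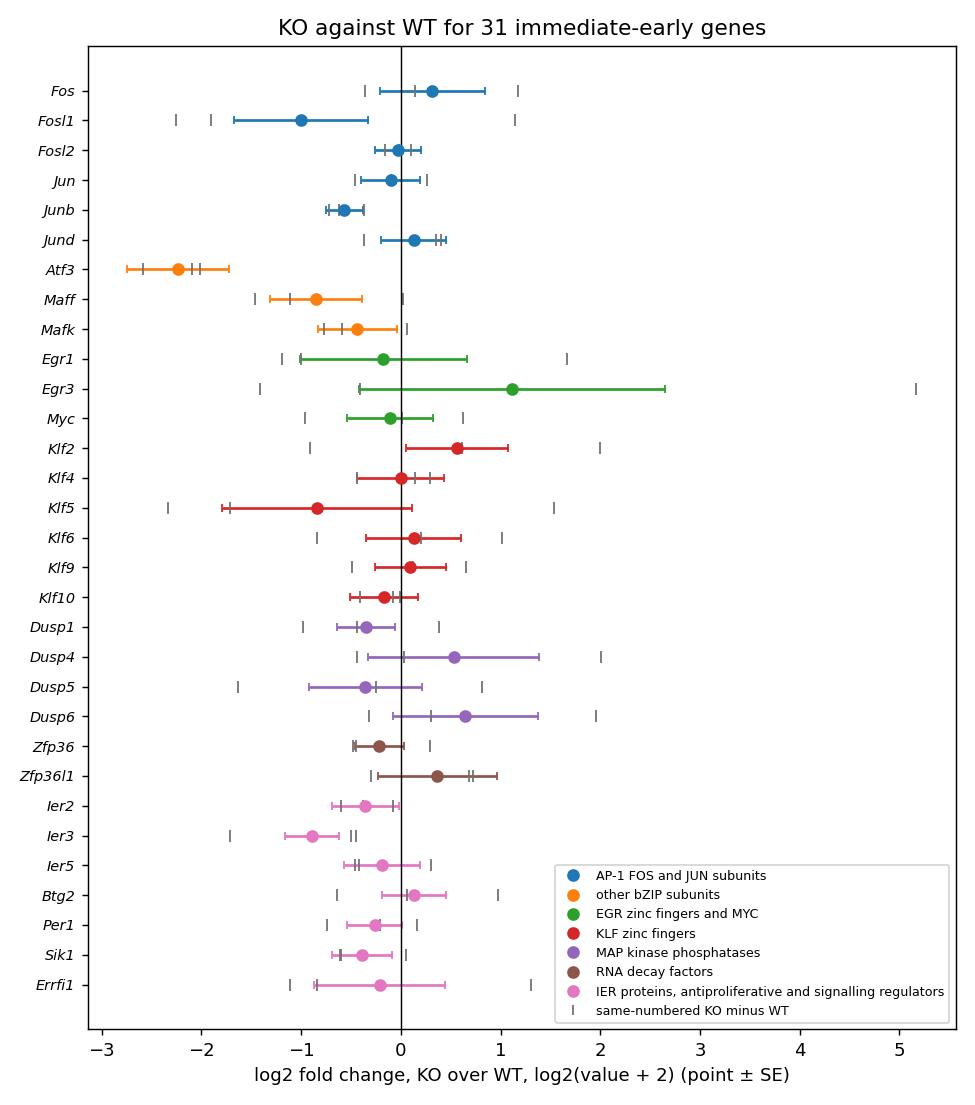
Log2 fold change of KO over WT with its SE (points and bars) for the 31 members by role, and the difference within each same-numbered pair (grey ticks), on the log2(value + 2) scale. Atf3, Junb, Ier3, Klf10 and Ier2 have all 3 ticks below 0, and Egr3 has 1 tick at 5.17.

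Genes upstream of the response gave no common direction. Of 32 tested genes for SRF, its ETS partners and the MAP kinase cascade, 16 were below 0 and 16 above, with a median log2 fold change of -0.02 and 0 called. At an unadjusted limma p under 0.05, 1 was lower and 1 higher, where 2.15% and 1.46% of all genes were. The groups did not overlap for 2 with KO below and 2 with KO above, where 4.51% and 3.91% of all genes did not. Braf, an activator of MEK, had 1729.6, 1474 and 1376 scaled reads in KO replicates 1 to 3, against 2413, 1778 and 2789 in WT replicates 1 to 3, with no overlap and a log2 fold change of -0.59 (SE 0.23). Rps6ka4, which encodes the kinase MSK2, had 0.47 (SE 0.19), with every KO library above every WT library, and its relative Rps6ka5 had 0.70 (SE 0.38), also without overlap. Egfr, the EGF receptor, had -0.68 (SE 0.35), with groups that overlapped. The genes named here were picked by p, so their lack of overlap carries little further weight.

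Feedback and output genes of ERK, 21 tested, had 13 below 0 and a median of -0.10, with 0 called. At an unadjusted limma p under 0.05, 1, Ereg, was lower, where 2.15% of all genes were. Their median by same-numbered pair was -0.39, -0.46 and 0.60 in replicates 1, 2 and 3. Hbegf, a growth factor that signals through the EGF receptor, had 343, 451 and 403 scaled reads in KO replicates 1 to 3, against 2169, 1652 and 342 in WT replicates 1 to 3, so that WT replicate 3 lay just below the lowest KO library and far below the other WT libraries. Ereg, another EGF receptor ligand, had a log2 fold change of -1.30 (SE 0.44), the ERK inhibitor Spry2 -0.41 (SE 0.29), and the cyclin gene Ccnd1 0.67 (SE 0.49). For each of these named genes the groups overlapped.

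Other immediate-early genes, 42 tested, had 23 below 0 and a median of -0.06, with 0 called. At an unadjusted limma p under 0.05, 4 were lower and 1 higher, where 2.15% of all genes were lower and 1.46% higher, and with the replicate block 8 were lower and 3 higher, where 4.25% and 3.17% of all genes were. The nuclear receptor gene Nr4a3 had 43.9, 85.5 and 22.1 scaled reads in KO replicates 1 to 3, against 194, 759 and 384 in WT replicates 1 to 3. Ptgs2, which encodes an inducible prostaglandin synthase, had a log2 fold change of -1.66 (SE 0.33) and Nr4a1 one of -1.19 (SE 0.40), and for all 3 genes every KO library lay below every WT library. Klf7 had 0.78 (SE 0.28), with every KO library above every WT library. As these 4 were picked by p, that their groups do not overlap carries little further weight.

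Genes known as AP-1 targets, 22 tested, had 17 below 0, beside 49.6% of all genes, and a median log2 fold change of -0.60, with 0 called. At an unadjusted limma p under 0.05, 4 were lower, those named below, where 2.15% of all genes were, and with the replicate block 8 were, where 4.25% of all genes were. In all 3 same-numbered pairs 9 were below 0, beside 15% of all genes. Plau, which encodes urokinase, had 468, 566 and 504 scaled reads in KO replicates 1 to 3, against 1197, 926 and 649 in WT replicates 1 to 3. Gclm, a glutathione synthesis gene, had -0.81 (SE 0.19), and the chemokine gene Ccl2 -2.49 (SE 0.95). Hmox1, which encodes heme oxygenase, had -1.15 (SE 0.48). The groups overlapped for Ccl2 and Hmox1, and did not for Plau and Gclm. As these 4 were picked by p, lack of overlap among them carries little further weight. In the whole list the groups did not overlap for 3 with KO below and 0 with KO above, where 4.51% and 3.91% of all genes did not. In replicate 3 Ccl2 had 1672 scaled reads in KO and 1147 in WT. Gclm and Hmox1 are also known as NRF2 targets and Ccl2 as an NF-kB target. The leukocyte markers present were lower in KO than in WT in their summed level, as given above. By gene, only Lyz2 was without overlap, while the groups overlapped for Cd68, Csf1r and Cd14. The part of these markers in this list was not tested.

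The other bZIP genes that can pair with these factors, 20 tested, had 12 below 0 and a median of -0.07, with 0 called. At an unadjusted limma p under 0.05, 1, Atf6, was lower, and with the replicate block 3 were, where 2.15% and 4.25% of all genes were. Atf6, a sensor of endoplasmic reticulum stress, had 2265, 2471 and 3011 scaled reads in KO replicates 1 to 3, against 5780.1, 5186 and 3168 in WT replicates 1 to 3, without overlap. Atf6 was picked by p, so this carries little further weight. Of the 20, the groups did not overlap for 1 with KO below and 0 with KO above, where 4.51% and 3.91% of all genes did not. Mafg, the third small MAF gene, had -0.50 (SE 0.27), Crem -0.79 (SE 0.53) and Maf -0.67 (SE 0.50), each with groups that overlapped. Heat shock genes, which rise with handling stress, had 5 of 13 below 0 and a median of 0.02, with 0 called. At an unadjusted limma p under 0.05, 1, Hspb1, was lower, where 2.15% of all genes were. Among them Hspb1 had -1.06 (SE 0.42), and the remaining named genes, Hsph1, Hsp90ab1 and Hspa8, had log2 values of 0.22, 0.14 and 0.13, each under its SE. The groups overlapped for every named heat shock gene.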

How the data were processed

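Poly(A)-selected, stranded libraries from 6 cultures, 3 KO and 3 WT, gave paired-end NovaSeq reads, per the labels' protocols. The submitters' processing notes name STAR, Partek, DESeq2, GRCm39 and mm39 but no versions, and no source used here gives the counting settings or whether strand was used. Coordinates in the deposited comparison table fit GRCm38, since 12341 of 12385 genes have the same start in GENCODE M21.

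The deposited per-library values are a scaled signal, not raw counts, although one table carries a raw count name: low values fall on multiples of 0.712 to 1.19, the value of 1 read, but only 82.1% to 92.3% of values up to 50 reads lie within 0.05 reads of a whole number, so no count model was used. The authors' deposited comparison table holds a log2 ratio of KO over WT with its p-value and step-up FDR, per the file headers, and a mean signal per group, from which the sign was checked.

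limma 3.58.1 (R 4.3.3, statmod 1.5.0) was run on log2(value + 2) with genotype alone, a mean trend and robust priors, on the 12363 genes with at least 10 in at least 3 libraries. Tests were two-sided, adjusted by Benjamini-Hochberg over all genes, with 0.05 as threshold. Deviations from the group mean correlated across genes at 0.43, 0.15 and 0.39 within same-numbered pairs, and at -0.40 to 0.02 between libraries of unlike number. These deviations sum to 0 over the 3 libraries of a group, so positive values within pairs bring negative ones between them. The contrast is thus partly built in and does not establish a pairing. Same-numbered libraries were treated as pairs in the block fit and the pair differences, but not in the main fit. No label gives a reason for such pairing. The members, gene lists and settings were chosen with earlier results of these data known. Named genes were all members and, per list, the 4 with the smallest p, or for markers the 2 most abundant. Exon lengths are the union of GENCODE M21 exons, and promoters are from RefSeq on GRCm38.p6. Exons of 9 members overlap a gene on the other strand, among them most exonic bases of Fosl1, Zfp36l1 and Jund. The labels do not say whether replicates are separate animals or cultures, so p-values measure the spread between these libraries. By its sex genes KO replicate 2 came from another animal than KO replicates 1 and 3, and these genes do not settle this for the others.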

Additional observations from a re-analysis of the deposited data

How the results depend on the processing

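No member was called by limma under any of the 19 other settings, and Atf3, Junb and Ier3 stayed below 0 in each. The count over all genes, 0 in the main analysis, was 30 with library quality weights and 5 with the replicate block and those weights (0.243% and 0.0404%), and 0 to 1 with libraries left out, 1 being without KO replicate 1. At an unadjusted limma p under 0.05 there were 447 genes in the main analysis. The weights were estimated without full convergence in at least 1 fit. The replicate block alone, with 0 calls, changed no call. The count of members without overlap was 3 with all libraries and 3 under every other scaling or table, 4 to 9 with 1 library left out (14.3% to 23.3% of all genes), and 11 without replicate 3 of both groups (37.3%). The median log2 fold change of the members was -0.14 to -0.30 with all libraries, and -0.37 to 0.02 with libraries left out, 0.02 being without WT replicate 1.

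The direction of 21 members turned under at least 1 setting. With quantile normalization these were Fosl2 (0.00616) and Klf4 (0.0249). With total scaling they were Fosl2 (0.00389) and Klf4 (0.0277). With library quality weights they were Fos (-0.0181), Fosl2 (0.0196), Egr3 (-1.34), Myc (0.305), Klf4 (0.311), Klf5 (0.499), Klf9 (-0.323), Klf10 (0.0319), Dusp4 (-0.235), Dusp6 (-0.26), Btg2 (-0.358), Zfp36l1 (-0.18) and Sik1 (0.0374). With the replicate block and weights they were Egr3 (-0.243), Myc (0.161), Klf4 (0.151), Klf5 (0.216), Klf9 (-0.182) and Btg2 (-0.157). Without replicate 3 of both groups, a setting added after the data were seen, they were Egr3 (-0.912), Klf2 (-0.15), Klf4 (0.216), Klf9 (-0.185), Dusp4 (-0.203) and Dusp6 (-0.00749). With 1 library left out, the log2 fold changes that changed sign ran over these ranges, Btg2 (-0.19 to 0.34), Dusp4 (-0.45 to 1.16), Dusp5 (-0.92 to 0.28), Dusp6 (-0.21 to 1.26), Egr1 (-1.21 to 0.40), Egr3 (-0.60 to 2.52), Errfi1 (-0.96 to 0.38), Fos (-0.14 to 0.65), Fosl2 (-0.13 to 0.14), Ier5 (-0.59 to 0.11), Jun (-0.30 to 0.13), Jund (-0.16 to 0.39), Klf10 (-0.37 to 0.16), Klf4 (-0.35 to 0.42), Klf5 (-1.77 to 0.068), Klf6 (-0.22 to 0.68), Klf9 (-0.29 to 0.34), Myc (-0.43 to 0.30) and Zfp36l1 (-0.20 to 0.81). Those that kept their sign but moved by over 1.5 times were Dusp1 (-0.62 to -0.087), Fosl1 (-1.78 to -0.60), Ier2 (-0.61 to -0.066), Klf2 (0.14 to 1.04), Maff (-1.39 to -0.46), Mafk (-0.80 to -0.05), Per1 (-0.40 to -0.02), Sik1 (-0.69 to -0.18) and Zfp36 (-0.34 to -0.13). Of the 21, 8 turned only when libraries were left out. The cause was not tested.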
